A study of Mus musculus with 2 samples.

Results

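The 35 genes described here encode the cytoskeleton and the growth cone of the young neuron: tubulins, microtubule-binding proteins, stathmins, collapsin response mediators, neurofilaments, growth cone membrane proteins, Rnd GTPases and kinesins. They were taken by symbol from the 18088 rows of the deposited matrix, and each of the 35 symbols named 1 row. The matrix held 4001 cells of the medial ganglionic eminence, the embryonic ventral forebrain region that gives rise to many inhibitory and cholinergic neurons, from CD-1 mouse embryos at stage E11.5. Suspensions were tagged with lipid-anchored oligonucleotides (MULTI-seq), pooled and run together on a 10x Chromium device. The barcode list named 6 suspensions from embryos carrying the enhancer hs192 or hs799: 4 were gated for GFP, 2 per enhancer, and 2 were ungated. No map from cells to these barcodes was used, so the cells form 1 library without replicates, gated and ungated cells cannot be told apart, and no p-value or standard error is given.

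Microtubules are polymers of alpha and beta tubulin that grow and shrink at their ends. A dividing progenitor builds a spindle from them, whereas a newborn neuron bundles them into a leading process and an axon, steered by a growth cone in which microtubules meet the actin network. Doublecortin and the structural microtubule-associated proteins stabilize the polymer, stathmins bind tubulin dimers and promote disassembly, collapsin response mediators relay guidance cues to microtubules, and neurofilaments fill the axon as it matures. In the embryonic forebrain, cells that express the Notch target Hes5 divide at the ventricle, cells that express the Notch ligand Dll3 are leaving that state, and cells rich in Tubb3 are neurons.

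The path was read from clusters made without the 35 members and without 13 further tubulin genes. After 6 doublet calls were removed, 3995 cells fell into 18 clusters, and each was assigned to the stage whose gene (Hes5, Dll3 or Tubb3) stood highest relative to that gene's top cluster. Hes5 progenitors made up 1177 cells (29.5%, exact 95% interval 28.1% to 30.9%), Dll3 cells 520 (13.02%, 11.99% to 14.1%) and neurons 2298 (57.5%, 56.0% to 59.1%). These intervals cover the counting of cells only. A level is the summed value of a gene per 10000 summed values of a group, and its SD is over cells. The level of Hes5 was 12.2 in Hes5 progenitors, 2.27 in Dll3 cells and 0.304 in neurons (SD 9.47, 4.20 and 0.839). That of Dll3 was 0.252, 2.33 and 0.390 in the same order (SD 0.667, 1.9999 and 0.873). The 7 neuron markers, which leave out Tubb3, summed to a level of 3.36 in Hes5 progenitors, 14.98 in Dll3 cells and 37.0 in neurons. All 7 were at least 2-fold higher in neurons than in Hes5 progenitors, and 4 were so against Dll3 cells. Rtn1 alone had 20.3 in neurons, and Elavl4 was lower in neurons (2.01) than in Dll3 cells (2.62). Median cell totals were 13496, 12637 and 11975.5 along the path, on a deposited scale whose true sequencing depth is unknown.

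A pair of nearby genes and the marker of the neuron stage show how differently tubulin genes behaved. Tuba1a (ENSMUSG00000072235) and Tuba1b (ENSMUSG00000023004) lie close together on the minus strand of chromosome 15 in GRCm38, at chr15:98949837-98953703 and chr15:98931425-98934565. Tubb3 (ENSMUSG00000062380) lies on the plus strand at chr8:123411424-123422015. Their promoter windows, 250 bases before to 50 after the RefSeq start on GRCm38.p6, are shown because Tuba1a and Tubb3 were higher in neurons than in progenitors and Tuba1b was lower. The windows are chr8:123411303-123411602 for Tubb3, chr15:98953452-98953751 for Tuba1a and chr15:98934341-98934640 for Tuba1b, each read 5′ to 3′ on the strand of its gene. Capitals mark the motif found.
Tubb3: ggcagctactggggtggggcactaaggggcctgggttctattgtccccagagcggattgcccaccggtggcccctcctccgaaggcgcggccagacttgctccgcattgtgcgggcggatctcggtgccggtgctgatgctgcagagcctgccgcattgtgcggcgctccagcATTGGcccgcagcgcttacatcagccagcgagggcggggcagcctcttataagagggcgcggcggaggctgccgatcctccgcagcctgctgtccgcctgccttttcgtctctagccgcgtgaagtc
Tuba1a: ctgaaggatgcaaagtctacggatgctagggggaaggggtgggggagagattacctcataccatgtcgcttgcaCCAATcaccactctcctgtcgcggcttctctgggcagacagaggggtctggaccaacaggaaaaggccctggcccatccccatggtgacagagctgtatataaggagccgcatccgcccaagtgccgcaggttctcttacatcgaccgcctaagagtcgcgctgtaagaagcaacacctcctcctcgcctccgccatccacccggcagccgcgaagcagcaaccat
Tuba1b: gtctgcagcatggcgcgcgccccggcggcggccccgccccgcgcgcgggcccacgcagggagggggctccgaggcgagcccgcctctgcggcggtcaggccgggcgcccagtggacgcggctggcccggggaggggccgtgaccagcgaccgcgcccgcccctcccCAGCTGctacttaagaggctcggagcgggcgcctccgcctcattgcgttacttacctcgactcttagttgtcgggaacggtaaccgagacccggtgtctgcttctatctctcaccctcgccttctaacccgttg
The search covered CAGCTG and CATCTG (both E-boxes, the core bound by proneural factors), TATAAA and CCAAT on both strands. Windows were found for 21 of the 35 members, 24 windows in all. CCAAT stood in the windows of Tubb3 and Tuba1a and of 7 other members, 9 of 21. That was 10 of the 24 windows, against 37.4% of all 32851 windows. CAGCTG stood in those of Tuba1b and Ina, 2 of 24 windows, against 16.3% of all windows. CATCTG was found in 3 members (Map1b, Rnd3 and Stmn3), 3 of 24 windows, against 17.2% of all. TATAAA was found in 5 members (Dcx, Kif5c, Map1b, Rnd3 and Tubb2a), 6 of 24 windows, against 13.6% of all. These matches are descriptions of letters in a window.

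Between the ends of the path, 25 of the 35 members were at least 2-fold higher in neurons than in Hes5 progenitors, 2 were at least 2-fold lower and 8 lay between. Of the 15006 genes with at least 30 summed values in these groups, 16.4% were at least 2-fold higher and 23.7% at least 2-fold lower in neurons. Among the genes with at least as many summed values as the lowest member, 15.8% were higher. The median log2 ratio was 1.90 over the members and -0.15 over all genes. The members were picked as neuronal cytoskeleton genes, so this direction belongs in part to the choice. Tubb3, counted among the 25, also helped to define the stages. All 35 passed the floor of 30 summed values.

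**Figure D1:**
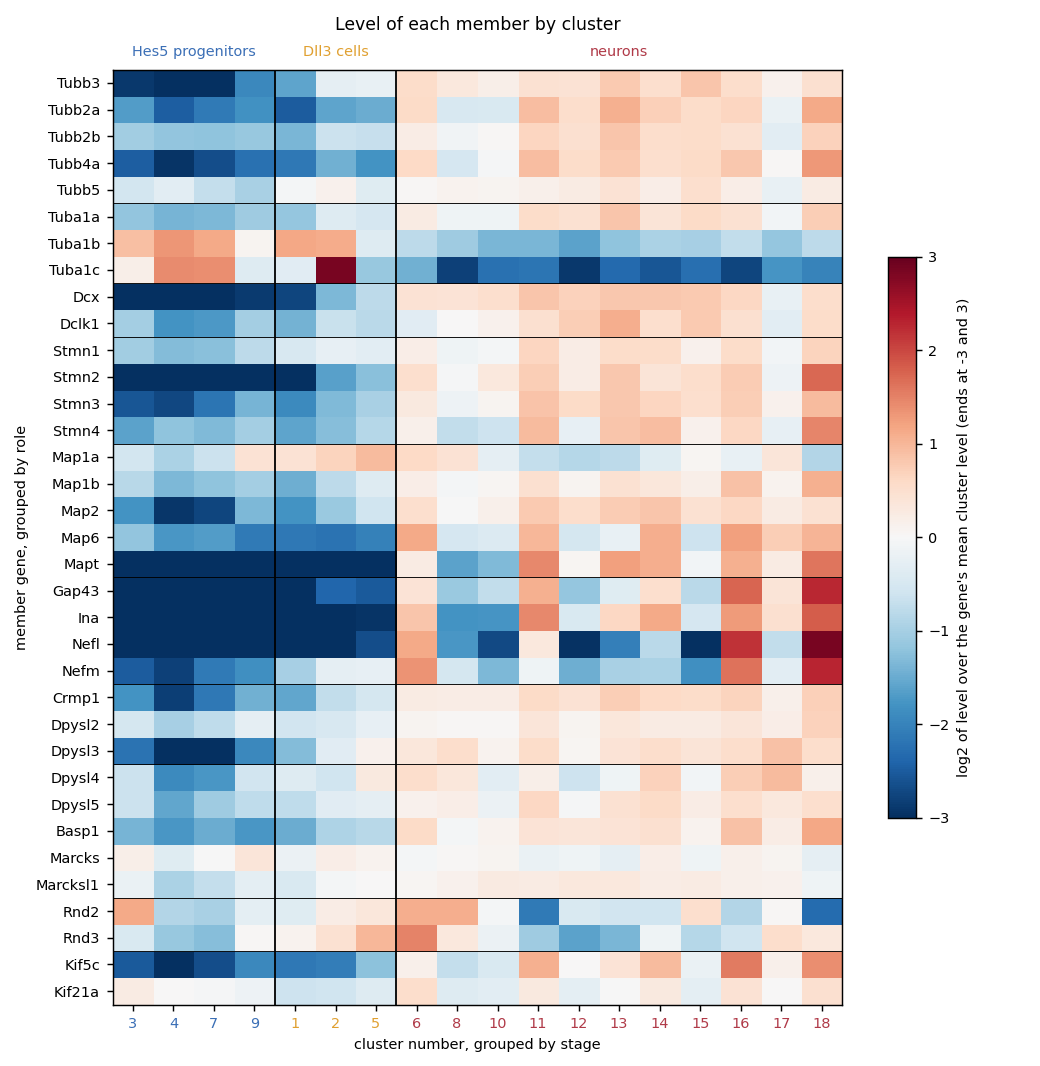
Level of each of the 35 members (rows, by role) in each of the 18 clusters (columns, by stage), as the log2 of the level over the gene's mean cluster level, with colours ending at -3 and 3. Most rows turn from low in the Hes5 clusters to high in the neuron clusters, while Tuba1b and Tuba1c run the other way.

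Of the 5 beta tubulins, 4 were at least 2-fold higher in neurons. Tubb3, the neuron-restricted beta tubulin, had a level of 2.35 in Hes5 progenitors, 15.4 in Dll3 cells and 32.1 in neurons (SD 2.95, 9.26 and 11.6). It helped to define the stages, so its 13.6-fold ratio of neurons over Hes5 progenitors describes that choice. Stages were assigned to whole clusters, partly by Tubb3, so the same choice bears on its spread over single cells. The 10th percentile was 17.7 in neurons and the 90th percentile was 5.98 in Hes5 progenitors. Dll3 cells spanned the gap, from 4.001 at the 10th to 28.1 at the 90th percentile.

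Tubb2a and Tubb2b are nearby genes on chromosome 13 whose products go into the microtubules of growing neurites. The level of Tubb2a was 1.06, 1.42 and 6.79 along the path, 6.41-fold higher in neurons than in Hes5 progenitors. That of Tubb2b was 18.4, 22.6 and 55.6, 3.02-fold higher in neurons. Both differed by little between the stages before the neuron: Dll3 cells stood 1.34-fold above Hes5 progenitors for Tubb2a and 1.23-fold for Tubb2b. Tubb4a, a beta tubulin of mature brain, had levels of 0.107, 0.196 and 1.002, a 9.36-fold ratio of neurons over progenitors. Tubb5, the broadly used beta tubulin, was already at 27.4 in Hes5 progenitors and reached 35.3 in Dll3 cells and 46.9 in neurons, 1.71-fold above the progenitors and short of the threshold.

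The alpha tubulins split. Tuba1a, the main alpha tubulin of newborn neurons, had a level of 30.5 in Hes5 progenitors, 47.97 in Dll3 cells and 100.3 in neurons (SD 11.1, 19.7 and 35.7). Tuba1b, used by most cells, had 11.4, 7.60 and 2.33 (SD 4.61, 5.30 and 1.65). Neurons were thus 3.29-fold higher for Tuba1a and 4.91-fold lower for Tuba1b than Hes5 progenitors. Tuba1c, on the same chromosome at chr15:99029891-99038110, was at 0.760, 0.524 and 0.0623, 12.2-fold lower in neurons. These 3 genes are alike in sequence: of the 50-base windows in the last 400 bases of each transcript, 43.9% for Tuba1a, 53.3% for Tuba1b and 59.3% for Tuba1c also occur in another gene, so the authors' counting may have split or dropped their reads. For Tubb2a the share was 31.9%, for Nefm 0.285% and for the other 30 members 0%.

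In the doublecortin family, the ratio of Dcx was far wider than that of Dclk1. Dcx (ENSMUSG00000031285), doublecortin, which stabilizes microtubules in migrating neurons, lies at chrX:143855842-143933311 and had a level of 0.169 in Hes5 progenitors, 1.30 in Dll3 cells and 4.94 in neurons (SD 0.441, 1.60 and 2.50). The ratio of neurons over progenitors was 29.2-fold. Its relative Dclk1, which joins doublecortin domains to a kinase, had 0.642, 0.993 and 2.78, a 4.32-fold ratio. Over single cells, the median of Dcx was 4.79 in neurons and 0 in Hes5 progenitors, and that of Dclk1 was 2.53 and 0.730.

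The 4 stathmins were all at least 2-fold higher in neurons. Stmn2, a stathmin of neuronal growth cones at chr3:8509360-8561606, had 0.803 in Hes5 progenitors, 4.81 in Dll3 cells and 22.9 in neurons (SD 1.33, 5.79 and 12.8), a 28.5-fold ratio of neurons over progenitors. Stmn3, its close relative, had 1.74, 3.62 and 12.5, and Stmn4 had 1.004, 1.10 and 2.96. Stmn1, which dividing cells also use, was at 14.5, 26.0 and 40.5 and was 2.79-fold higher in neurons. At the 10th percentile of cells, Stmn1 stood at 23.4 in neurons and 8.81 in Hes5 progenitors, and Stmn2 at 7.74 and 0.

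Of the 5 microtubule-associated proteins, 4 were at least 2-fold higher in neurons. Mapt (ENSMUSG00000018411), the axonal protein tau, lies at chr11:104231390-104332090 and had a level of 0.146 in Hes5 progenitors, 0.249 in Dll3 cells and 3.57 in neurons (SD 0.381, 0.527 and 3.83), a 24.4-fold ratio of neurons over progenitors. Map2, enriched in dendrites of mature neurons, had 0.804, 2.27 and 6.26. Map1b, abundant in growing axons, had 10.7, 15.02 and 30.4, and Map6, which protects microtubules from cold, had 0.157, 0.118 and 0.586. Map1a had another course, with 0.532 in Hes5 progenitors, 1.36 in Dll3 cells and 0.680 in neurons.

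Of the 3 neurofilament genes, Ina and Nefl were low before the neuron stage and Nefm was already near its neuronal level in Dll3 cells. Ina (ENSMUSG00000034336), alpha-internexin, the neurofilament protein of early neurons, lies at chr19:47014698-47025327 and had 0.212 in Hes5 progenitors, 0.611 in Dll3 cells and 7.78 in neurons (SD 0.484, 1.07 and 8.01). Its 36.8-fold ratio of neurons over progenitors was the widest of the 35. Nefl, the light chain, had 0.0593, 0.0734 and 0.542, and Nefm, the medium chain, had 0.243, 0.923 and 1.16. Both were uneven among neuron clusters. Nefl had 2.50 in cluster 16 and 4.02 in cluster 18, but 0.0713 in cluster 12 and 0.0535 in cluster 15, near the Dll3 cells. Nefm was above 0 in 43.3% of neurons and 55.2% of Dll3 cells, and its median neuron cluster had 0.765. Nefl and Nefm overlap on opposite strands of chromosome 14 in the annotation, as do exons of Tuba1b, Dclk1, Map1a, Map2, Ina and Rnd2 with an opposite-strand gene. The sources used here do not say whether counting used strand.

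Among the collapsin response mediators, 4 of 5 were at least 2-fold higher in neurons. Dpysl3 had 0.833 in Hes5 progenitors, 7.22 in Dll3 cells and 11.46 in neurons (SD 1.41, 5.51 and 4.97). Crmp1 had 0.838, 2.27 and 5.57, Dpysl4 had 0.509, 1.42 and 1.53, and Dpysl5 had 0.542, 0.903 and 1.45. Dpysl2, which binds tubulin dimers and promotes axon growth, had 1.36, 1.80 and 2.72 and lay just under 2-fold, passing it in 7 of 12 settings.

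Of the growth cone membrane proteins, Gap43 and Basp1 were higher in neurons and both MARCKS proteins were short of 2-fold. Gap43, a classic growth cone protein, had 0.338 in Hes5 progenitors, 0.549 in Dll3 cells and 4.46 in neurons (SD 0.574, 0.879 and 6.05). Basp1 had 6.97, 10.4 and 27.5. Marcks, which binds actin and membrane lipids in most embryonic cells, had 13.8, 15.1 and 14.1, a 1.02-fold ratio of neurons over progenitors whose sign turned in 1 of 12 alternative settings, with values not scaled. Marcksl1 had 5.98, 8.85 and 11.3, a 1.88-fold ratio.

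The Rnd proteins, small GTPases that bind GTP without hydrolysing it and act on migration, were not called in either direction between the ends of the path. Rnd3 had 1.14 in Hes5 progenitors, 3.52 in Dll3 cells and 1.65 in neurons (SD 1.24, 2.60 and 2.13), and Rnd2 had 0.720, 1.09 and 0.967. The 1.34-fold ratio of Rnd2 in neurons over progenitors turned sign in 1 of 12 settings, with stages made of single cells (log2 -0.40 for Rnd2). The kinesins differed: Kif5c, a heavy chain of the axonal transport motor kinesin-1, had 1.03, 2.18 and 8.59, an 8.35-fold ratio, and Kif21a, of the kinesin-4 family, had 2.40, 1.71 and 2.33, a ratio of 0.971 whose sign turned in 2 of 12 settings.

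The path divides into a step from Hes5 progenitors to Dll3 cells and a step from Dll3 cells to neurons. The Dll3 cells enter both ratios, so the steps are set side by side and not correlated. At the first step, 13 members were at least 2-fold higher in Dll3 cells than in Hes5 progenitors and 0 were lower, where 4.71% of 13401 genes were higher and 12.5% lower. At the second, 20 members were at least 2-fold higher in neurons than in Dll3 cells and 4 were lower. Among 14018 genes, 14.4% were higher and 12.2% lower. Tubb3, which helped to define the stages, is counted at both steps.

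The first step was led by Dpysl3, 8.67-fold higher in Dll3 cells than in Hes5 progenitors, followed by Dcx (7.71-fold), Tubb3 (6.55-fold), Stmn2 (5.99-fold) and Nefm (3.80-fold). Rnd3 (3.07-fold), Ina (2.89-fold), Map2 (2.83-fold), Dpysl4 (2.78-fold), Crmp1 (2.71-fold), Map1a (2.56-fold), Kif5c (2.12-fold) and Stmn3 (2.08-fold) completed the 13. The collapsin response mediators thus gave 3 of the 13. Neither the growth cone membrane proteins nor the alpha tubulins gave any, and the Tubb4a ratio was 1.83-fold. Tubb4a passed 2-fold in 5 of 12 settings, and Tuba1b and Tuba1c were at least 2-fold lower in Dll3 cells in 4 and 3.

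The second step was led by Mapt, 14.3-fold higher in neurons than in Dll3 cells, Ina (12.7-fold), Gap43 (8.14-fold) and Nefl (7.39-fold). Those 4 had log2 ratios of 0.77, 1.53, 0.70 and 0.31 at the first step. Those values varied with the setting: over 12 settings the first-step log2 ratio reached 1.71 for Mapt, 2.75 for Ina, 1.68 for Gap43 and 1.46 for Nefl, and Mapt and Gap43 passed 2-fold in 5 settings each, Nefl in 1. Dpysl3 was 1.59-fold, Nefm 1.26-fold and Dpysl4 1.08-fold higher in neurons than in Dll3 cells, the last with a sign that turned in 3 of 12 settings. The members lower in neurons than in Dll3 cells were Tuba1c (8.42-fold), Tuba1b (3.27-fold), Rnd3 (2.14-fold) and Map1a (2.0001-fold). Ratios of Map1b (2.03-fold), Tubb3 (2.08-fold) and Tuba1a (2.09-fold) lay just past the threshold, and in 7, 5 and 4 of 12 settings they were short of it. Map1a was short of 2-fold in 3. The neuron level of Nefl was uneven, with 0.0535 in cluster 15 and 4.02 in cluster 18, beside 0.0734 in Dll3 cells.

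**Figure D2:**
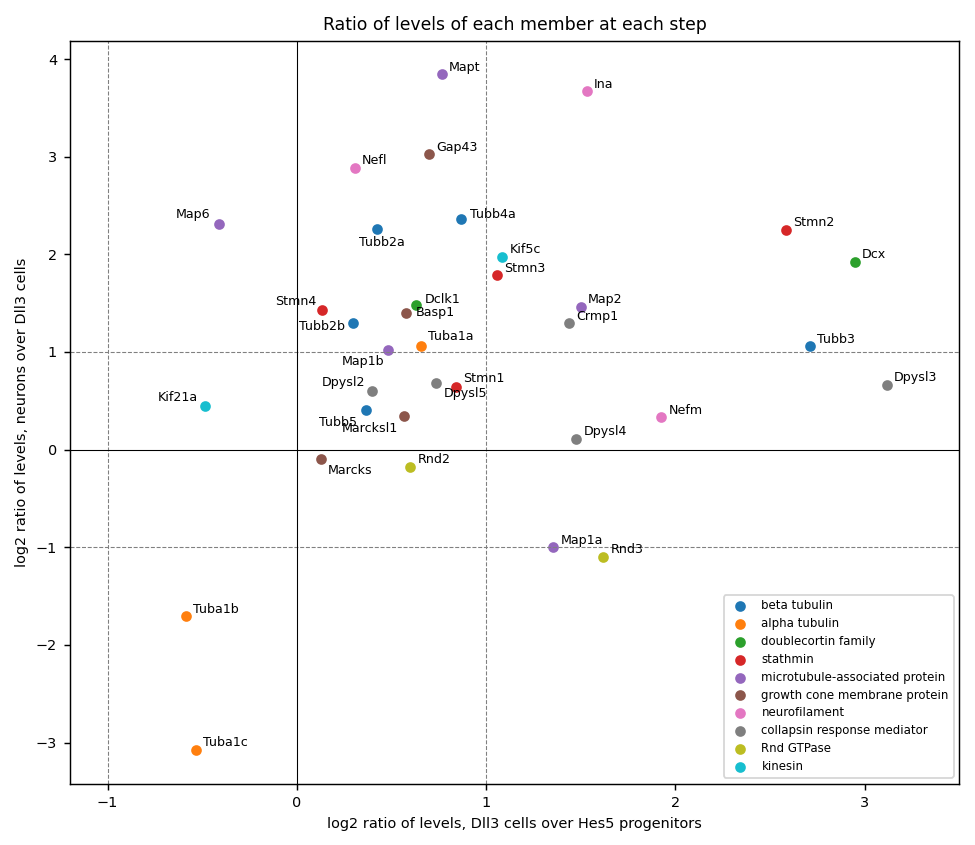
Log2 ratio of levels of each member in Dll3 cells over Hes5 progenitors (horizontal) and in neurons over Dll3 cells (vertical), coloured by role, with dashed lines at 2-fold. Dpysl3, Dcx, Tubb3 and Stmn2 lie far right, Mapt, Ina, Gap43 and Nefl lie high, and Tuba1b and Tuba1c lie at the lower left.

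The 3 Dll3 clusters were not alike. Cluster 1 (160 cells, led by histone genes) and cluster 2 (78 cells, led by mitotic genes such as Ube2c and Cdc20) had levels of the division marker Mki67 of 4.81 and 6.55, and cluster 5 (282 cells, with Gsx1, Helt and Dll3 among its leading genes) had 0.728. Tubb3 stood at 7.60 in cluster 1, 18.6 in cluster 2 and 19.2 in cluster 5, and Dpysl3 at 3.53, 6.91 and 9.59. Dcx had 0.470, 1.2505 and 1.83 in these clusters, and Stmn2 1.70, 5.16 and 6.63. Cluster 2 thus carried neuronal transcripts of Tubb3 and Stmn2 at levels near those of cluster 5. Tuba1c stood apart, with 0.257 in cluster 1, 2.34 in cluster 2 and 0.149 in cluster 5. Tuba1b had 11.7, 11.3 and 4.0005.

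Inside the Hes5 progenitors, cluster 9 (125 cells, led by Gsx1 and other genes) was nearest to the Dll3 cells, with a Dll3 level of 1.28, Tubb3 of 5.91 and Dpysl3 of 2.27. Cluster 4, the highest of the 4 in the G2 and M list, and cluster 7, the highest in the S list, differed in few members. They are not cleanly separated by phase: histone genes were among the leading genes of cluster 4, and Cdt1 and Cdc6 among those of cluster 7. In clusters 4 and 7, Mki67 had 5.16 and 2.49, Cdc20 1.99 and 2.88 and Pcna 1.06 and 1.12. Likeness between these clusters is thus no measure of likeness between phases. Stmn2 had 0.419 in cluster 4 and 0.897 in cluster 7, and Ina 0.127 and 0.255. These 2 members were at least 2-fold lower in cluster 4, where 0.565% of 12213 genes were, and 0 members were higher, where 4.54% were. That count is small and unstable: with the 2-fold threshold kept, it ran from 0 without the cells that hold almost no value of 1 to 8 with 4000 variable genes. Of the tubulin genes, Tubb3 differed most, with 1.47 in cluster 4 and 2.25 in cluster 7, and none passed 2-fold. Others were closer, with Tuba1b at 13.05 in cluster 4 and 11.53 in cluster 7, Tubb5 at 31.7 and 24.3, and Tuba1c at 0.879 and 0.863. Whether the low levels of neuronal genes in progenitors came from those cells or from free RNA was not tested.

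To order the members more finely, the cells were ranked by 15 neuronal genes minus 14 progenitor genes, none of them members, and divided into 10 bins. Bins 1 to 3 were mostly Hes5 progenitors, bin 4 was 75.2% Dll3 cells, bin 5 was 69.2% neurons, and bins 6 to 10 were at least 96.5% neurons. Onset is the first bin at or above the midpoint between a member's lowest and highest bin. The onset of all genes is not given, so the bins order the members among themselves only. Onset fell in bin 4 for Map1a, Dpysl3, Dpysl4, Marcksl1 and Rnd3, and in bin 5 for 7 members, among them Tubb3, Tubb5, Dcx and Crmp1. It fell in bin 6 for 9 members, among them Tuba1a, Tubb2b, Stmn1, Stmn2 and Map2, in bin 7 for Tubb2a and Kif5c, in bin 8 for Stmn4, Map6, Mapt, Gap43, Ina and Nefm, and in bin 10 for Nefl.

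Several forms were seen along this axis. The early form was near its top by bin 6, as in Tubb3, with 1.87 in bin 2, 14.4 in bin 4, 27.1 in bin 5 and 31.8 in bin 10. Dcx had 0.127, 1.254, 3.25 and 5.53 in these bins, and Dpysl3 0.698, 7.87, 11.02 and 12.2. A later group had its highest level in bin 10 and well below it before. Ina had 0.862 in bin 4, 4.15 in bin 6, 8.201 in bin 8 and 14.0 in bin 10, Mapt had 0.332, 1.72, 3.85 and 6.70, and Gap43 had 0.584, 2.76, 4.27 and 8.26. Nefl had 0.0820, 0.198, 0.490 and 1.33. The late bins mix neuron clusters that differ in these members. Clusters 12 and 18 both had a median bin of 9, with Gap43 at 1.69 and 18.04 and Nefl at 0.0713 and 4.02. Ina had 4.42 and 21.6 in them, and Mapt 2.69 and 7.86. The part of the cluster mix in the late levels was not tested, so the bins are no timing within 1 lineage.

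Other members peaked in the middle. Map1a had 0.453 in bin 1, 1.45 in bin 4 and 0.509 in bin 10, and Rnd3 had 1.07, 3.41 and 1.35. Rnd2 peaked in bin 5 at 1.68, with 0.786 in bin 1 and 0.431 in bin 10. Nefm had 2 phases, with 0.205 in bin 1, 1.02 in bin 4, 0.755 in bin 6 and 1.95 in bin 10. Kif21a dipped, with 2.43 in bin 1, 1.75 in bin 5 and 2.81 in bin 10, so the midpoint rule placed its onset in bin 1 and that of Marcks in bin 3. Tuba1b, Tuba1c and Rnd2 had their highest bin before their lowest and so were given no onset. Tuba1b had 12.04 in bin 1, 7.14 in bin 4 and 2.08 in bin 10.

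**Figure D3:**
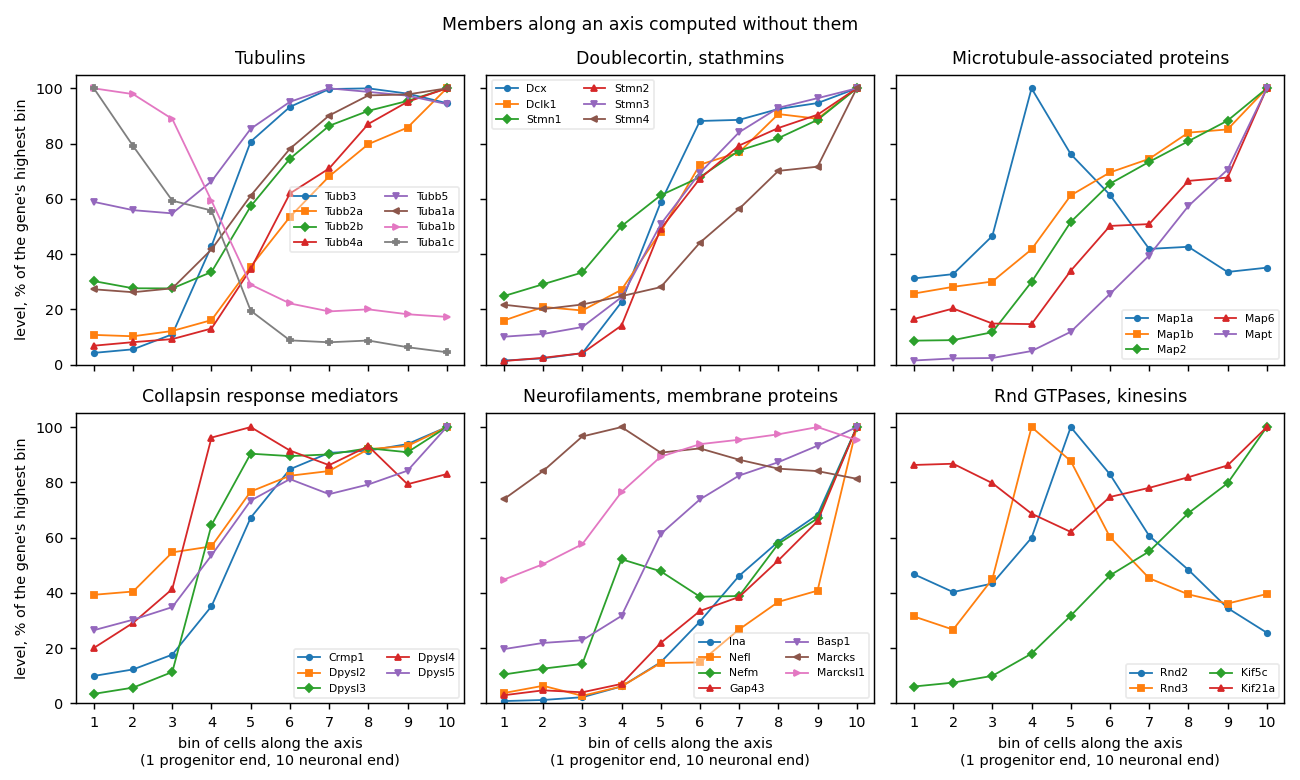
Level of each member in 10 bins of cells along an axis computed without the members, from the progenitor end (bin 1) to the neuronal end (bin 10), as a percentage of the gene's highest bin, in 6 panels by role. Tubb3, Dcx and Dpysl3 are near their top by bin 6, Mapt, Ina, Gap43 and Nefl reach theirs in bin 10, and Map1a, Rnd3 and Rnd2 peak in bins 4 and 5.

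Among the 10 neuron clusters of at least 50 cells, 22 of the 35 members had a highest level at least 2-fold above the lowest. Of all genes with enough values, 59.3% did, and 43.5% of those with at least the summed values of the lowest member. The members' count is near the first share and above the second, and it is not read as a trait of the members. The spread was widest for neurofilament genes, Gap43, Rnd2 and Mapt. Nefl ran from 0.0535 in cluster 15 to 4.02 in cluster 18, Nefm from 0.351 to 6.20 in the same clusters, Ina from 1.76 in cluster 8 to 21.6 in cluster 18, Gap43 from 1.69 in cluster 12 to 18.04 in cluster 18 and Mapt from 0.844 in cluster 8 to 7.86 in cluster 18. Tubb3 ran from 24.6 in cluster 17 to 40.3 in cluster 15, and Tubb5 from 34.1 to 56.1 in these clusters. Of the 8 tubulins, 4 passed 2-fold: Tubb4a (3.53-fold), Tubb2a (3.07-fold), Tubb2b (2.19-fold) and Tuba1c (2.18-fold).

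Cluster 18 (121 cells, led by Tac1 and Ebf1, with Isl1 at 9.85) was the top cluster for Stmn2 (52.5), Map1b (51.4), Basp1 (47.8), Stmn4 (6.64) and Tubb2a (10.5) as well. Cluster 16 (118 cells, with Isl1 at 6.38 and Meis2 at 9.71) was highest for Kif5c (19.5) and Map6 (1.18). Cluster 13 (175 cells, led by Sst) was highest for Tuba1a (134.2) and Tubb2b (73.3), and cluster 15 (382 cells, led by Maf and Calb1 among others) for Tubb3. Cluster 8 (260 cells, with St18 and Prox1 among its leading genes) lay nearest to the Dll3 cells, at a median bin of 5, and was highest for Rnd2 (2.12) and Map1a (1.09). The clusters differ in their position along the axis as well as in kind, with median bins from 5 in cluster 8 to 9 in clusters 11, 12, 13 and 18.

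Pairs of clusters with shared marker genes were set side by side. These pairs were chosen after the values were seen. Clusters 11 (216 cells) and 12 (453 cells) both expressed Lhx8 (9.51 and 11.4) and Zic1 (5.28 and 4.60), and both had a median bin of 9, with 84.7% of cluster 11 and 71.7% of cluster 12 in bins 8 to 10. The part of this difference in position was not tested. In cluster 11 against cluster 12, Ina had 16.6 and 4.42, Gap43 7.88 and 1.69, Mapt 6.99 and 2.69, Kif5c 13.9 and 6.69 and Nefl 0.695 and 0.0713. Stmn4, Map6 and Nefm were also at least 2-fold higher, 8 members in all, where 4.82% of 10489 genes were. Rnd2 was lower in cluster 11, with 0.229 against 0.730, where 3.69% of genes were. Tubb3 barely differed, with 31.2 in cluster 11 and 30.5 in cluster 12. Isl1, which marks cholinergic and striatal neurons in the ventral forebrain, had 2.19 in cluster 11 and 0.161 in cluster 12.

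Clusters 13 and 15 both expressed Calb1 (8.45 and 6.90) and Lhx6 (3.64 and 3.498). Cluster 13 was higher in Ina (9.36 against 4.30), Mapt (6.04 against 2.43) and Nefl (0.133 against 0.0535), 3 members, where 3.76% of 9997 genes were at least 2-fold higher. It was lower in Rnd2 (0.667 against 1.41), where 1.98% of genes were. The median bin was 9 in cluster 13 and 7 in cluster 15, so position along the axis moved with this pair and its part in the result was not tested. Tubb3 had 39.3 in cluster 13 and 40.3 in cluster 15.

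Clusters 18 and 16 both expressed Isl1 (9.85 and 6.38) and Meis2 (10.5 and 9.71), with median bins of 9 and 8. Other markers set them apart: Ebf1 had 21.8 in cluster 18 and 2.31 in cluster 16, and Nr2f2 0.460 and 4.999. Sp8 was among the leading genes of cluster 16 only. In this pair 0 members were at least 2-fold higher in cluster 18, where 5.80% of 8343 genes were. Rnd2 was lower, with 0.201 in cluster 18 against 0.540 in cluster 16, where 1.44% of genes were. Ina had 21.6 in cluster 18 and 14.8 in cluster 16, Mapt 7.86 and 5.42, and Kif5c 17.5 and 19.5.

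**Figure D4:**
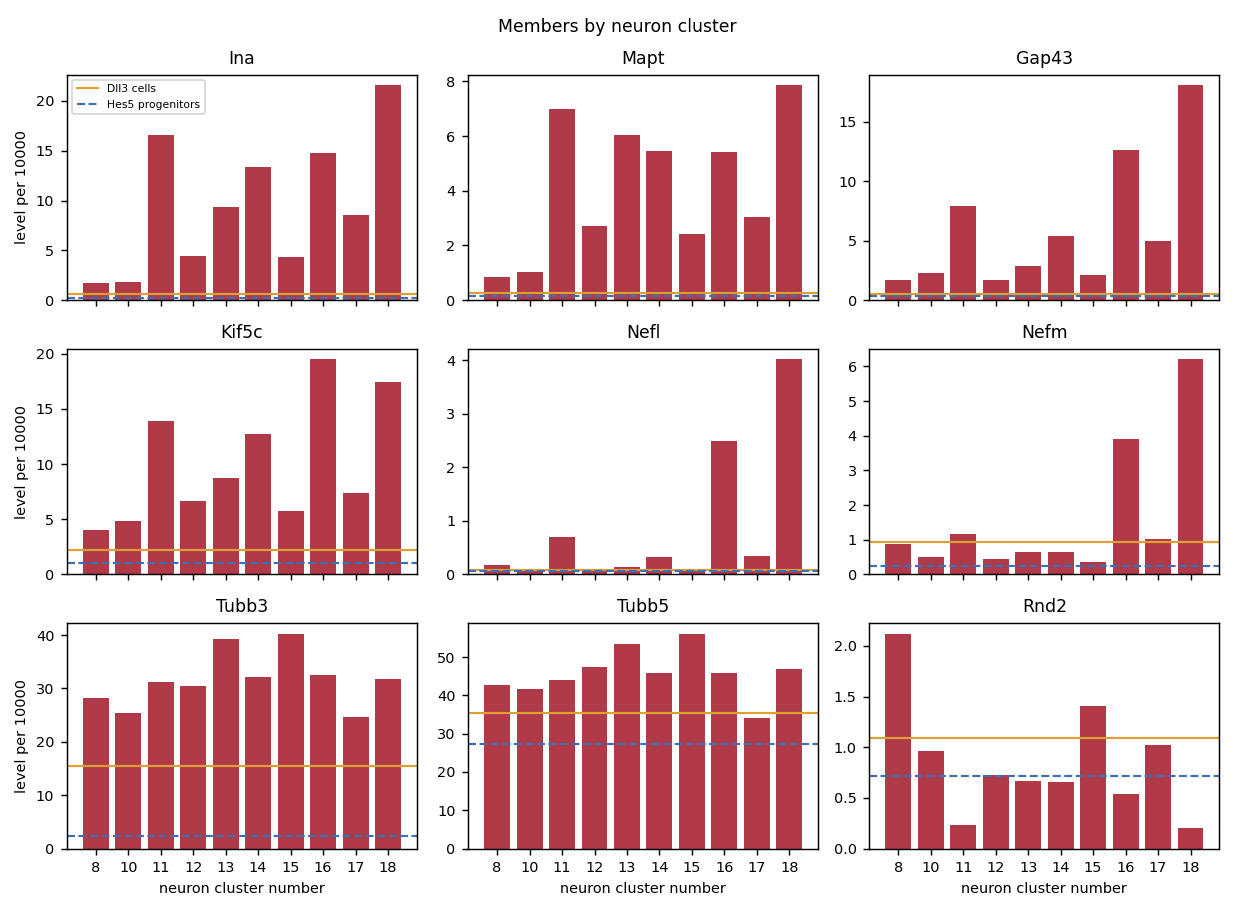
Level per 10000 summed values of 9 members in the 10 neuron clusters of at least 50 cells (bars), with the level of the Dll3 cells (solid line) and of the Hes5 progenitors (dashed line). Ina, Gap43, Kif5c, Nefl and Nefm are highest in clusters 11, 16 and 18 and Mapt in clusters 11, 13 and 18, whereas Tubb3 and Tubb5 differ less and Rnd2 is highest in cluster 8.

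Over these 10 clusters, the patterns most like each other by Spearman's rank correlation were those of Nefl and Nefm (0.99), of Tubb5 and Dclk1 (0.98), of Stmn1 and Stmn3 (0.98) and of Map1b and Dpysl2 (0.98). The pattern of Ina was most like that of Kif21a and Kif5c (0.96 each), and that of Rnd2 ran against it (-0.94). The points share 1 library and are ordered in part by the same axis, so the values are descriptions.

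The cells of each neuron cluster were divided at the middle of the axis score into later and earlier cells. This split was added after the values were seen. Mapt, Ina, Tubb2a, Dclk1 and Map2 were higher in the later cells of all 10 clusters. The score itself is made of neuronal and progenitor genes, and the share of all genes with this pattern is not given. These counts are therefore descriptions and mark nothing particular to the members. Mapt had a median ratio of 1.57, with 8.76 in later and 5.16 in earlier cells of cluster 11, and 7.61 and 3.32 in cluster 14. Ina had a median ratio of 1.197 and Nefl, higher in 9 of 10, of 1.67. Tubb3 was higher in 5 of 10, with a median ratio of 1.001, and Tubb5 in 4 of 10. Rnd2 was higher in 1 of 10, Tuba1c in 1 of 10 and Tuba1b in 2 of 10. Cluster 17 gave the widest ratio for many members, such as 9.55 for Mapt and 1.46 for Tubb3.

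**Figure D5:**
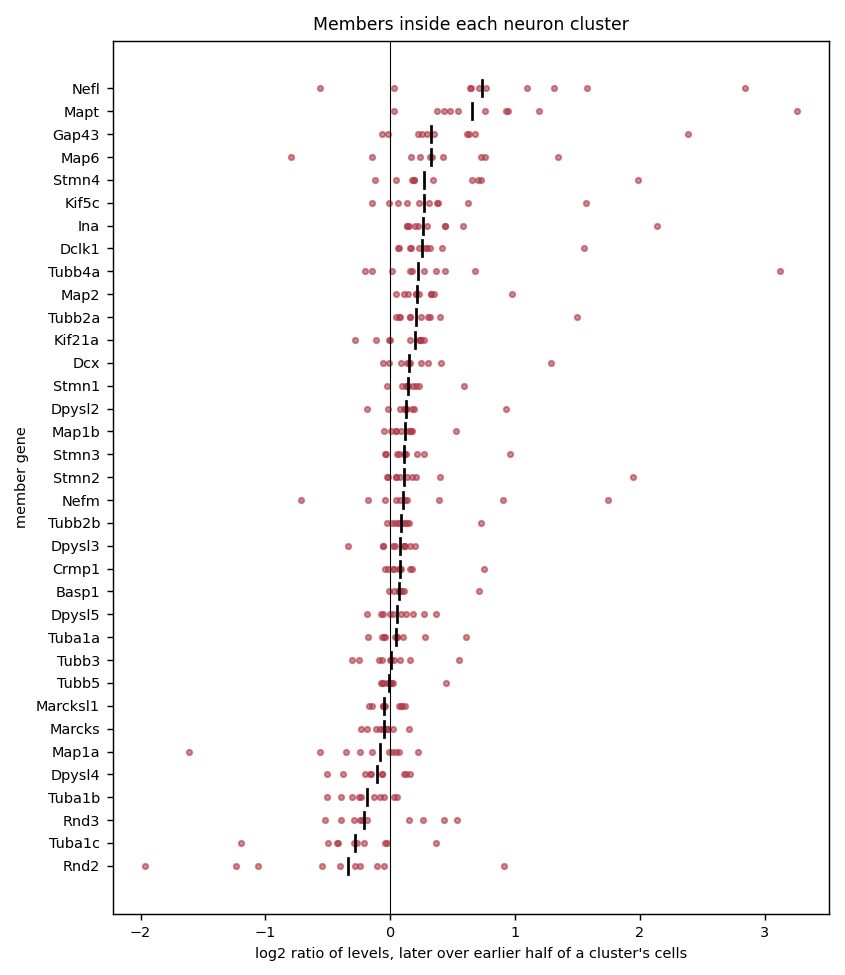
Log2 ratio of levels in the later over the earlier cells of each of 10 neuron clusters (points) for each member, ordered by the median (black bar). Nefl, Mapt, Gap43 and Map6 lie to the right, Tubb3 and Tubb5 lie around 0, and Rnd2, Tuba1c and Rnd3 lie to the left, with cluster 17 as the far right point in many rows.

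Other genes of the same machinery differed in the same comparison of neurons over Hes5 progenitors, in which 16.4% of genes were at least 2-fold higher and 23.7% lower. Of 36 other microtubule-binding and transport genes, 23 were higher and 1 was lower. Kif5a, a second kinesin-1 heavy chain, had 1.16 in neurons and 0.101 in Hes5 progenitors (SD 1.13 and 0.3005), and Kif26b 0.0192 and 0.00129. The progenitor level of Kif26b rests on 2 summed values. Nde1, a dynein partner used in mitosis, was 19.0-fold lower in neurons and was the 1 lower gene, and Katna1, a subunit of the severing enzyme katanin, had 0.299 in neurons and 0.532 in progenitors.

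Of 15 other tubulin and tubulin-modifying genes, 3 were higher and 4 lower. Tubg2, a gamma tubulin, had 0.118 in neurons and 0.0129 in Hes5 progenitors, and Ttll7, which adds glutamate chains to tubulin, had 0.626 and 0.115. Tubb6, a beta tubulin, had 0.00107 in neurons and 0.0974 in progenitors, and Tube1, epsilon tubulin, 0.0377 and 0.137. The neuron level of Tubb6 rests on 3 summed values. Together with Tuba1b and Tuba1c, the tubulin genes thus stood on both sides.

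Of 30 actin and growth cone genes, 15 were higher in neurons and 2 lower. Tmsb10, which binds actin monomers, had 66.6 in neurons and 15.7 in Hes5 progenitors (SD 23.5 and 6.19), and Pfn2, the neuronal profilin, 6.74 and 1.60. Baiap2 was 3.99-fold and Cap2 3.38-fold lower. Of 17 axon and membrane genes, 14 were higher and 0 lower. Cntn2, a cell adhesion molecule of axons, had 0.0790 in neurons and 0.00194 in progenitors, and Nrn1, neuritin, 0.0516 and 0.00258. Their progenitor levels rest on 3 and 4 summed values, and Nrn1 was among the leading genes of neuron cluster 6, of 40 cells. Ank2 had 1.01 in neurons and 1.44 in progenitors, and Gpm6b 1.33 and 1.67.

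Of 5 other intermediate filament genes, 1 was higher and 3 lower. Nefh, the heavy neurofilament chain, had 0.0189 in neurons and 0.00710 in progenitors, and Lmna 0.0612 and 0.0548. Nes, the filament of neural progenitors, had 0.643 in neurons and 8.60 in progenitors, 13.4-fold lower, and Vim 4.73 and 23.4. As Ina stood higher and Nes and Vim lower in neurons, the filament genes differed in opposite directions.

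Proliferation genes and the lists behind the axis differed as well. The 20 S genes summed to 36.5, 23.4 and 3.24 and the 20 G2 and M genes to 45.4, 44.5 and 1.13 in Hes5 progenitors, Dll3 cells and neurons. In neurons against Hes5 progenitors, the S genes ran from Slbp (4.18-fold lower) and Mcm7 (5.58-fold) to Cdc6 (64.0-fold) and Clspn (66.0-fold), and the G2 and M genes from Ube2c (20.9-fold lower) and Aurka (25.8-fold) to Cdk1 (63.6-fold) and Bub1b (73.3-fold). All 15 neuronal axis genes were at least 2-fold higher in neurons, from Snap25 (3.51-fold) and Scg3 (3.91-fold) to Nrxn3 (31.6-fold) and Myt1l (38.1-fold). All 14 progenitor axis genes were lower, from Sox2 (2.31-fold) and Pax6 (3.59-fold) to Slc1a3 (90.4-fold) and Hes1 (101.7-fold). Markers of cell types outside the neural lineage were few or low: microglia, endothelial and mural markers summed to at most 0.0400 in any stage with 1, 1 and 2 of 5 measured each, choroid plexus had 0 of 3 measured, and erythroid markers summed to 1.36, 1.61 and 1.67 along the path. Oligodendrocyte precursor markers summed to 0.237, 0.167 and 0.00569 and glutamatergic markers to 0.0277, 0.0581 and 0.383. Markers of the neighbouring eminences were not low: the list for the lateral ganglionic eminence (LGE) summed to 6.02, 5.06 and 6.71 and that for the caudal eminence, with 4 of 5 measured, to 1.27, 2.71 and 2.30, beside 0.488, 2.48 and 10.05 for the list of GABAergic neurons of the medial eminence and 1.40, 5.99 and 11.02 for the cholinergic list. Clusters 16 and 18 carried the LGE markers Meis2 and, in cluster 18, Ebf1 (21.8) and Tac1. Cluster 16 also carried the caudal eminence markers Nr2f2 (4.999) and Sp8. The part of these cell types in the spread among neuron clusters was not tested. Cells that hold almost no value of 1 made up 3.57%, 3.65% and 6.70% of the stages and 17.6% of cluster 10.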

How the data were processed

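Per the labels' protocols, tissue was microdissected, dissociated and prepared with MULTI-seq on the 10x platform. Reads were handled with Cell Ranger 3.0.2, bcl2fastq and the build GRCm38, per the submitters' processing notes. The deposited matrix holds whole numbers treated here as a score that the authors made from UMI counts: cell totals ran only from 10475 to 14196, and in 215 cells under 10% of the values of 871 genes of mean near 1 equalled 1. The sources used here do not give the step behind this, so no count model and no intervals of ratios were used.

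No cell had under 1000 genes, and the matrix had 0 mitochondrial rows. Scrublet (expected rate 5%) called 6 cells, 0.150%, which were dropped; a caller that marks so few cannot be said to have worked. Each cell was scaled to 10000. Clustering used scanpy 1.11.5 and igraph 0.11.9 with 2000 variable genes, 30 components, 15 neighbours, resolution 1 and seed 0, with 48 genes (the members and other tubulins) left out. A stage needed at least 0.5 of its gene's highest cluster level. Ratios use genes with at least 30 summed values and are called at 2-fold. The text names all 35 members and, of each other list, the 2 highest and 2 lowest ratios of neurons over Hes5 progenitors. The result of 1 further gene list is not reported here. Members, lists and markers were chosen with earlier results of these data known. Coordinates are from GENCODE on GRCm38, promoters from RefSeq on GRCm38.p6. Alternatives are in the closing section.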

Additional observations from a re-analysis of the deposited data

How the results depend on the processing

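The count of members at least 2-fold higher in neurons than in Hes5 progenitors, 25, was 25 or 26 under the 14 alternatives at 2-fold. It was 28 when called at 1.5-fold and 21 at 3-fold. Of the 14, floors of 10 and 100 summed values could not change it, as the lowest member had 1353. The neuron stage by the neuronal list and the stage share of 0.3 left the stages at 1177, 520 and 2298 cells. The 13 members higher in Dll3 cells than in Hes5 progenitors became 21 when called at 1.5-fold and 6 at 3-fold, and the 20 higher in neurons than in Dll3 cells became 11 at 3-fold. The 22 members apart among neuron clusters became 14 at resolution 0.5 and 13 at 3-fold. Between the Hes5 clusters highest in the G2 and M list and in the S list, 2 members were apart. That count became 5 at resolution 0.5, 4 at resolution 2, 8 with 4000 variable genes and 1 with members kept in the clustering. It was 1 with values not scaled, 0 without cells that skip 1, 9 at 1.5-fold and 0 at 3-fold. Of 1260 member ratios recomputed, 1210 moved by less than 1.5 times, 50 moved more and 0 called ratios turned sign. The causes were not tested. The 1260 include the neuron stage by the neuronal list and the stage share of 0.3, under which 0 moved more. They also include values not scaled, under which 0 moved more. That setting keeps the groups and shifts all ratios of a comparison by the same small amount. Values left unscaled put the median log2 ratio of all genes, neurons over Hes5 progenitors, at -0.26 in place of -0.15. Members with onset in bins 6 to 10 numbered 18, against 15 with 20 bins, 13 with the neuronal list alone and 12 with the progenitor list alone. No share of all genes stands beside these onset counts, nor beside the counts above at other thresholds or settings. They describe how the calls move and mark nothing particular to the members. Leaving out the cluster of 40 cells led by Otp and other genes, chosen after seeing the data, kept the counts at 25, 13 and 20. No paired analysis was possible because the cells form 1 library and no result comes from a test. True depth per cell is unknown, which limits the members with the lowest levels, Tuba1c, Nefl and Map6.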

Other observations

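Neuron cluster 6, with 40 cells and under the size used for the comparison of neuron clusters, had Otp at 6.77 and Slc17a6, a glutamate transporter gene, at 1.75, against 0.423 for Gad2. Ina stood at 10.8, Nefm at 3.24, Nefl at 1.23 and Gap43 at 4.997, and Rnd3 at 6.15 and Rnd2 at 2.14, both above the neuron stage as a whole (1.65 and 0.967). Tubb3 was at 33.0 and Tuba1a at 90.8, beside 32.1 and 100.3 in all neurons.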
